A study of Mus musculus with 8 samples.

Results

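The core and naive pluripotency transcription factors are described here through 10 genes, Pou5f1, Nanog, Esrrb, Klf2, Klf4, Klf5, Tfcp2l1, Tbx3, Prdm14 and Sall4, chosen by name out of 55335 genes in the counts. The rule uses no measured value, but the genes were proposed with earlier results of these data known. The mRNA of each was measured by polyA RNA-seq in E14 ESCs, a mouse embryonic stem cell line, in 8 libraries of 4 groups with 2 replicates each. Control E14 ESCs carried a negative control shRNA, and the other groups carried shRNAs against Sox2 (Sox2-KD), Hnrnpk (hnRNPK-KD) or Cdk9 (Cdk9-KD). All groups, control included, had been infected with shRNA lentiviruses, selected with puromycin and grown in serum with LIF and the inhibitors CHIR99021 and PD0325901, which block GSK3 and MEK. Pairs of shRNAs were made for each gene, and which of them a library received is not stated. The replicates are called biological duplicates of 1 cell line, so that p-values measure the spread between such cultures.

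Pou5f1 (the gene of OCT4), Sox2 and Nanog form the core of the pluripotency network. OCT4 and SOX2 bind DNA side by side on composite motifs, and the core factors occupy their own regulatory regions and those of each other. The naive factors Esrrb, Klf2, Klf4, Klf5, Tfcp2l1 and Tbx3 hold ESCs in the state that LIF and the inhibitors of GSK3 and MEK maintain. LIF acts through STAT3 on Klf4 and Tfcp2l1, inhibition of GSK3 lifts repression of Esrrb by TCF7L1, and inhibition of MEK favours Klf2 and Nanog. Prdm14 dampens FGF signalling and de novo DNA methylation, and Sall4 is a zinc finger partner of OCT4 and NANOG.

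The 250 bases before the RefSeq transcription starts of 6 of the 10 genes, in 9 windows, were read from the RefSeq promoter table of GRCm38.p6. Klf5, Tbx3, Prdm14 and Sall4 had no window. Motif cores were searched as exact letters on both strands, namely CATTGT (SOX core), ATGCAAA (POU core), CCACCC (KLF box), AAGGTCA (ESRRB core), TTCCNNGAA (STAT core) and ATCAAAG (TCF core). The windows of the core factors Nanog and Pou5f1 and of Klf2, the member with the widest range between libraries, are shown 5′ to 3′ on the strand of the gene, which is the + strand for all of them, with every match in capitals. In the Nanog window the capitals are a POU core and, 1 base further on, a SOX core, both on the opposite strand. In the Pou5f1 and Klf2 windows the capitals are KLF boxes on either strand, and adjacent KLF boxes of Pou5f1 overlap.
Nanog, chr6:122707239-122707488: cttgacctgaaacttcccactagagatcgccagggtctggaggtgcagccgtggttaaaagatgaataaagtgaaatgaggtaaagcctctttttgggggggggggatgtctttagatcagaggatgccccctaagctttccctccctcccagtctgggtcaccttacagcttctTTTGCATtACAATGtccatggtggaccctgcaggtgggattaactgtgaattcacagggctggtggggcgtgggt
Pou5f1, chr17:35505782-35506031: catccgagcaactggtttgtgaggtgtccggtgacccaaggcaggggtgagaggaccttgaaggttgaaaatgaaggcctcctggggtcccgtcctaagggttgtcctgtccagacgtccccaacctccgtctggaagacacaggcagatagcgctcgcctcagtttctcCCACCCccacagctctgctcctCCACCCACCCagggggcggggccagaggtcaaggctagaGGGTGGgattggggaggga
Klf2, chr8:72318812-72319061: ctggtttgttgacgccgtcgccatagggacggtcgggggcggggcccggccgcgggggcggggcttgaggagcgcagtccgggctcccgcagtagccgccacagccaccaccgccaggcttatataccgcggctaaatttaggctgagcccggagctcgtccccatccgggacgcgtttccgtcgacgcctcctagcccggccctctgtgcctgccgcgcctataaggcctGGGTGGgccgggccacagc
The POU core of Nanog lay 75 to 69 bases before the start and its SOX core 67 to 62 bases before it. The last bases of the Pou5f1 and Klf2 windows lie inside the GENCODE gene, whose annotated start is upstream of the RefSeq one used. A SOX core was found in 3 of the 9 windows, which are both overlapping windows of Nanog, sharing the same match, and a second window of Pou5f1. Among 32851 promoter windows of the same length, 10.7% held a SOX core, 4.12% a POU core and 28.1% a KLF box. The KLF box was found in 5 of the 9 windows, in those of Pou5f1, Nanog, Esrrb and Klf2. A STAT core (in 4.06% of all windows) was found in 1 window, of Esrrb, and the windows of Klf4 and Tfcp2l1 held none of the letters searched. The ESRRB core (4.08% of all windows) and the TCF core (3.21%) were in none of the 9. These matches are letters in a window and no measure of binding.

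Library totals ran from 16709201 to 17719366 counts, and the 10 genes took between 0.462% and 0.625% of a library. Sox2 mRNA was lower in both Sox2-KD libraries, at 320.4 and 284 CPM (counts scaled to library size, with TMM normalization) against 412 and 530.3 in control. Its log2FC was -0.64 (adjusted p = 0.0479, Benjamini-Hochberg over the edgeR quasi-likelihood test), so that Sox2 mRNA fell by 35.9%. Cdk9 mRNA was at 73.1 and 53.2 CPM in Cdk9-KD against 109 and 129 in control (log2FC -0.91, adjusted p = 0.0985 in the same edgeR fit). Hnrnpk mRNA was at 697 CPM in the first and 1144 CPM in the second replicate labelled hnRNPK-KD, against 1094 and 1131 in control. Only replicate 1 of that label was below control, which limits every direction drawn from it. Of 10 markers of ESCs, 9 had at least 458 counts in every library, and Dppa3 had between 7 and 158. Fibroblast markers, which would mark feeder cells, summed to between 2.60 and 6.87 CPM in all libraries.

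Per kilobase of exon, the 10 genes spanned a wide range in level. Over the 8 libraries the mean RPKM (CPM divided by the exon length of the GENCODE gene in kilobases) was 328 for Pou5f1, 305 for Nanog, 159 for Tfcp2l1, 141 for Esrrb and 136 for Klf4. The lower members were Klf2 with a mean RPKM of 98.4, Tbx3 with 52.9, Sall4 with 44.6, Klf5 with 41.4 and Prdm14 with 19.3. The steps that held in all 8 libraries were those from Nanog to Tfcp2l1, from Klf2 to Tbx3 and from Klf5 to Prdm14. Neighbours were less distinct elsewhere. Pou5f1 was above Nanog in 5 of 8 libraries, Esrrb above Klf4 in 5 and Tfcp2l1 above Esrrb in 6, so that their order changed between libraries. Sall4 was above Klf5 in 6 of 8, and the exceptions were both Sox2-KD libraries. There Sall4 was at 36.6 and 36.3 RPKM and Klf5 at 44.2 and 46.9. Differences within these pairs were not tested. Klf4 was above Klf2 and Tbx3 above Sall4 in 7 of 8. The highest library exceeded the lowest by between 1.33 times for Tfcp2l1 and 2.58 times for Klf2, and for Tbx3 by 2.40 times. In bulk RNA, fewer cells that express a factor and less of its mRNA per cell cannot be told apart.

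**Figure D1:**
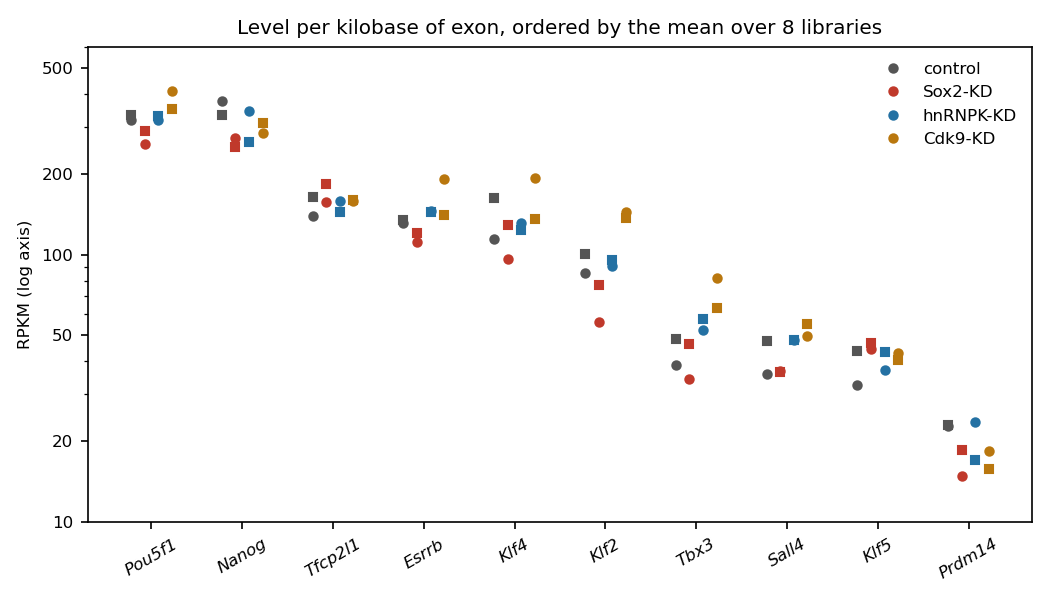
RPKM of each gene (log axis) in the 8 libraries, ordered by the mean over libraries. Circles are replicate 1, squares replicate 2, and colours are the groups. Pou5f1 and Nanog lie above 250 RPKM in every library, Prdm14 below 24, and Klf2 and Tbx3 spread most.

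Replicates of 1 group differed in these genes by a median of 1.08 to 1.18 times, depending on the group. The widest replicate gap was that of Klf4 in control, where one library was 1.43 times the other. In 6 of the 10 genes the highest of the 8 libraries was a Cdk9-KD library, and in 7 of the 10 the lowest was a Sox2-KD library. The same was not counted over all genes, so that these counts do not set the members apart from other genes. Replicate 1 of Cdk9-KD was the highest for Pou5f1, Esrrb, Klf2, Klf4 and Tbx3. Replicate 1 of Sox2-KD was the lowest for the same genes and for Prdm14. All values in the following are TMM-normalized CPM given for replicates 1 and 2 in that order, which compare a gene between libraries and not genes with each other.

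**Figure D2:**
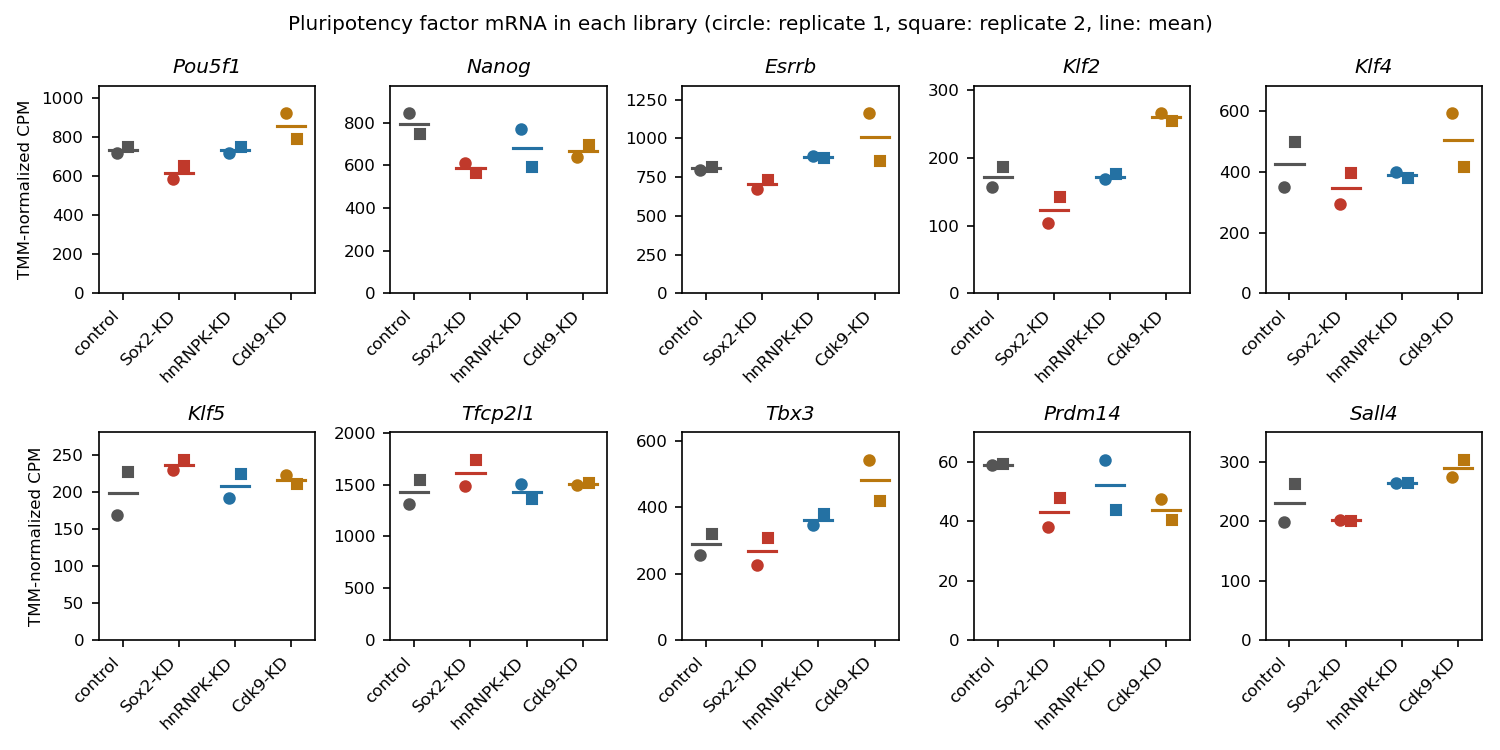
TMM-normalized CPM of each gene in each library, on axes that start at 0, with circles for replicate 1, squares for replicate 2 and a line for the group mean. Klf2 is lowest in both Sox2-KD libraries (103 and 143 CPM) and highest in both Cdk9-KD libraries (266 and 254 CPM).

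Positions are those of GENCODE vM21 on GRCm38. Among the core factors, Pou5f1 (ENSMUSG00000024406.16, chr17:35506018-35510772, + strand) was at 720.4 and 751 CPM in control, 584 and 653 in Sox2-KD, 719 and 747 in hnRNPK-KD-labelled libraries and 923 and 793 in Cdk9-KD. Both Sox2-KD libraries were below and both Cdk9-KD libraries above all others. Against control, the log2FC was -0.25 in Sox2-KD (95% interval -0.56 to 0.06) and 0.22 in Cdk9-KD (-0.09 to 0.53), and neither passed the thresholds. Nanog (ENSMUSG00000012396.12, chr6:122707489-122714633, + strand), the homeobox factor whose promoter window carries the POU and SOX cores, was at 846 and 746 CPM in control, 612 and 566 in Sox2-KD, 772 and 594 in hnRNPK-KD-labelled libraries and 639 and 696 in Cdk9-KD. The Sox2-KD and Cdk9-KD libraries were all below both controls. The log2FC of Nanog was -0.43 in Sox2-KD (-0.78 to -0.08) with an unadjusted p of 0.0200, and did not pass after Benjamini-Hochberg adjustment (adjusted p = 0.161, the edgeR quasi-likelihood test). In Cdk9-KD its log2FC was -0.25 (-0.60 to 0.10). The rows of the pseudogene copies hold almost nothing, with at most 13 counts for Nanog-ps1, which is 0.0999% of Nanog, and 0 for Nanog-ps2.

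Sall4 (ENSMUSG00000027547.17, chr2:168748332-168767943, − strand) was at 198 and 264 CPM in control, 203 and 201 in Sox2-KD, 265 and 265 in hnRNPK-KD-labelled libraries and 274 and 304 in Cdk9-KD. The controls differed from each other more than the Sox2-KD mean did from the control mean, and the Sox2-KD libraries lay between them. Prdm14 (ENSMUSG00000042414.7, chr1:13113457-13127163, − strand), the lowest member, was at 58.8 and 59.2 CPM in control, 38.2 and 47.8 in Sox2-KD, 60.7 and 43.8 in hnRNPK-KD-labelled libraries and 47.4 and 40.3 in Cdk9-KD. Sox2-KD and Cdk9-KD libraries were all below the controls. Its log2FC was -0.46 in Sox2-KD (-0.88 to -0.03, adjusted p = 0.227) and -0.43 in Cdk9-KD (-0.85 to -0.0016, adjusted p = 0.479), both by the edgeR quasi-likelihood test, and neither was called.

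Of the naive factors, Esrrb (ENSMUSG00000021255.17, chr12:86361117-86521628, + strand), an orphan nuclear receptor, was at 796 and 819 CPM in control, 677 and 733 in Sox2-KD, 885 and 875 in hnRNPK-KD-labelled libraries and 1163 and 854 in Cdk9-KD. Sox2-KD was below and the other knockdowns above control in each library, with log2FC values of -0.20 in Sox2-KD, 0.12 under the hnRNPK-KD label and 0.32 in Cdk9-KD, none of them called. The value in Cdk9-KD rested on replicate 1 and was 0.05 without it. Tfcp2l1 (ENSMUSG00000026380.10, chr1:118627945-118685168, + strand), a grainyhead-like factor downstream of LIF, was at 1315 and 1549 CPM in control, 1486 and 1742 in Sox2-KD, 1503 and 1364 in hnRNPK-KD-labelled libraries and 1499.7 and 1515 in Cdk9-KD. All groups overlapped control, and its log2FC ran from 0.00 to 0.17 in the comparisons with control.

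The Krüppel-like factors are zinc finger proteins with shared binding sites. Klf2 (ENSMUSG00000055148.7, chr8:72319033-72321656, + strand) was at 157 and 186 CPM in control, 103 and 143 in Sox2-KD, 168 and 176 in hnRNPK-KD-labelled libraries and 266 and 254 in Cdk9-KD. Sox2-KD lay below control and Cdk9-KD above it, without overlap. Klf4 (ENSMUSG00000003032.8, chr4:55527143-55532466, − strand), one of the factors used to reprogram fibroblasts, was at 348 and 498 CPM in control, 295 and 395 in Sox2-KD, 399.8 and 379 in hnRNPK-KD-labelled libraries and 592 and 414 in Cdk9-KD. Every group overlapped control. Klf5 (ENSMUSG00000005148.8, chr14:99298691-99315036, + strand), which acts in ESCs and in the trophectoderm, was at 169 and 228 CPM in control, 229.8 and 244 in Sox2-KD, 192 and 224 in hnRNPK-KD-labelled libraries and 224 and 210.4 in Cdk9-KD. It was the only member with both Sox2-KD libraries above both controls, by a small margin and with a log2FC of 0.26 (-0.11 to 0.62) that was not called. Per length, the ratio of Klf2 to Klf5 was 2.62 and 2.30 in control, 1.27 and 1.65 in Sox2-KD, 2.47 and 2.22 under the hnRNPK-KD label and 3.35 and 3.40 in Cdk9-KD. The Sox2-KD ratios were thus the lowest and the Cdk9-KD ratios the highest of the 8, a contrast picked after the values were seen and given without a test.

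Tbx3 (ENSMUSG00000018604.18, chr5:119670669-119684724, + strand), a T-box factor that sustains ESC self-renewal, was at 256 and 321 CPM in control, 227 and 308 in Sox2-KD, 346 and 381 in hnRNPK-KD-labelled libraries and 544 and 419.5 in Cdk9-KD. Sox2-KD overlapped control, and the other knockdowns were above it. The antisense gene Tbx3os1 held at most 38 counts, 0.704% of those of Tbx3, and antisense rows at Pou5f1 and Sall4 at most 3 and 9.

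The Sox2-KD libraries were read here for whether the factors that share targets with SOX2 keep their mRNA when Sox2 is lowered. By qRT-PCR the paper reports lower Esrrb, Nanog, Oct4 (Pou5f1) and Sall4 mRNA after knockdown of Sox2 or hnRNPK. That is another assay, which was not analysed here. None of the 10 was called against control by the edgeR quasi-likelihood test, while 713 genes were called, 4.32% of the 16504 genes tested. The limits, those of the study's methods, were 0.05 for the adjusted p and 0.6 for the size of the log2FC in either direction. At an unadjusted p under 0.05 there were 3 members, Klf2, Nanog and Prdm14, all lower in Sox2-KD, where 19.3% of all genes tested passed that limit. DESeq2 and edgeR's likelihood ratio test also called 0 members. The largest difference was that of Klf2, with a log2FC of -0.48 (-0.86 to -0.10, adjusted p = 0.151 by the edgeR quasi-likelihood test), a level of 0.72 times control. It was -0.74 without replicate 2 and -0.28 without replicate 1 of Sox2-KD, and in the latter case Nanog (-0.50) and Prdm14 (-0.31) were lower still. The log2FC was negative in 8 of 10 members and had a median of -0.22, beside 0.02 over all genes tested. The groups did not overlap in 6 members, 5 of them below control and 1 above, and in 53.3% of all genes tested.

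What the depth and 2 replicates allowed is given by the intervals. In Sox2-KD all 10 intervals lay within a log2FC of -1 and 1, so that a loss or gain of 2-fold was outside each 95% interval taken singly, and 5 of the 10 lay within -0.6 and 0.6. The lowest bound was -0.88, for Prdm14. Standard errors were between 0.14 and 0.22 on the log2 scale. For the other members the interval leaves room for changes as large as the threshold, and a missing call does not show an equal level.

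**Figure D3:**
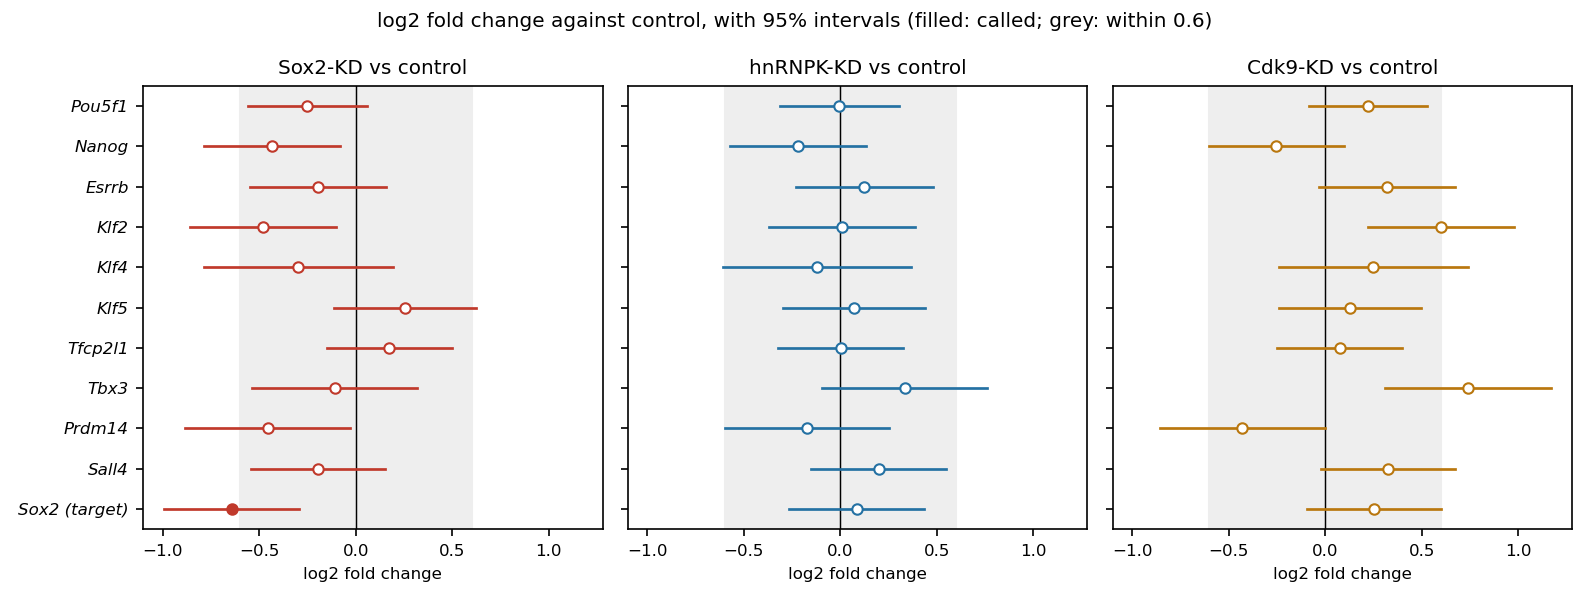
log2FC of each gene against control with its 95% interval, from the edgeR fit of all 8 libraries, in Sox2-KD, under the hnRNPK-KD label and in Cdk9-KD. Filled points are called, and the grey band spans log2FC values of -0.6 to 0.6. Sox2 in Sox2-KD is the only filled point, and Klf2 and Tbx3 lie furthest right in Cdk9-KD.

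In Cdk9-KD, in which the kinase of P-TEFb that releases paused RNA polymerase II was lowered, 8 of the 10 factors had a higher mean than in control, but no change passed the test. No member was called by the edgeR quasi-likelihood test, which called 23 genes or 0.139% of those tested. Tbx3 had a log2FC of 0.74 (0.31 to 1.17) and 1.67 times the control level, with an unadjusted p of 0.00300 and an adjusted p of 0.217 in that test. It was the 1 member called by DESeq2 (log2FC 0.72, adjusted p = 0.0339) and by edgeR's likelihood ratio test (adjusted p = 0.0346). Klf2 had a log2FC of 0.60 (0.22 to 0.98, adjusted p = 0.259 in the edgeR quasi-likelihood test). Together with Prdm14, which was lower, these were the 3 members at an unadjusted p under 0.05, a limit that 10.4% of all genes passed. The median log2FC over the members was 0.24 beside 0.02 over all genes. The groups did not overlap in 7 members, 5 above and 2 below control, and in 39.2% of all genes tested.

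Under the hnRNPK-KD label no gene at all was called by the edgeR quasi-likelihood test (0 of 16504, or 0%), members included. None of the 10 had an unadjusted p under 0.05, a limit passed by 8.03% of the genes tested, and DESeq2 and the likelihood ratio test called 91 and 87 genes but no member. The largest log2FC was that of Tbx3, 0.33 (-0.09 to 0.76), with both libraries above both controls. The median was 0.00 beside 0.02 over all genes. Groups did not overlap in 3 members, Esrrb, Tbx3 and Sall4, all above control, and in 39.1% of all genes tested. Without replicate 2 of the label, whose Hnrnpk mRNA was not lower, the count of members called stayed at 0, the remaining library being assumed to vary like the other groups. Nanog and Prdm14 differed most between the replicates of this label, at 772 and 594 CPM and at 60.7 and 43.8 CPM, with the lower value in replicate 2 for both.

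The knockdowns were then compared with each other directly. The control libraries, shared by the comparisons above, enter this difference only through the filter on low counts, the TMM scaling and the estimate of the spread. Klf2 and Tbx3 were both lower in Sox2-KD than in Cdk9-KD E14 ESCs. Klf2 averaged 123 ± 27.9 CPM (SD, n = 2) in Sox2-KD and 260.0 ± 8.46 (SD, n = 2) in Cdk9-KD. Its log2FC was -1.08 (-1.46 to -0.70, adjusted p = 0.00514 by the edgeR quasi-likelihood test), 0.47 times the Cdk9-KD level. Tbx3 averaged 267 ± 57.5 CPM (SD, n = 2) against 482 ± 88.3 (SD, n = 2), with a log2FC of -0.85 (-1.28 to -0.42, adjusted p = 0.0256 from the same edgeR test). The libraries of the groups did not overlap in either gene, and the share of all genes without overlap was not counted for this comparison. Against control the groups did not overlap in 53.3% of all genes in Sox2-KD and in 39.2% in Cdk9-KD. DESeq2 and the likelihood ratio test called the same 2 members. The 2 members called stand beside 1210 genes called, 7.33% of those tested.

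Pou5f1, Esrrb, Sall4 and Klf4 were also below an unadjusted p of 0.05 and lower in Sox2-KD than in Cdk9-KD, which brought the count to 6 of 10 members, where 21.7% of all genes passed. Their log2FC values were -0.47 for Pou5f1, -0.52 for Esrrb, -0.52 for Sall4 and -0.55 for Klf4, with adjusted p of 0.0679, 0.0796, 0.0751 and 0.179 by the edgeR quasi-likelihood test, so that none of them was called. Nanog and Prdm14, lower than control in both knockdowns, had log2FC values of -0.18 (-0.53 to 0.17) and -0.03 (-0.46 to 0.40) between them. The median over the 10 members was -0.49, beside -0.02 over all genes tested. Tbx3 lost its call without replicate 1 of Cdk9-KD (log2FC -0.63, adjusted p = 0.118) and without replicate 1 of Sox2-KD (-0.66, adjusted p = 0.143), while Klf2 was called without any 1 of the 8 libraries. Esrrb was called without replicate 2 of Cdk9-KD (-0.73, adjusted p = 0.0294), and was at -0.26 without replicate 1 (adjusted p = 0.347), all by the edgeR quasi-likelihood test.

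Against the libraries labelled hnRNPK-KD, Sox2-KD had no member called by the edgeR quasi-likelihood test, beside 974 genes called (5.90%), and none by DESeq2 or the likelihood ratio test. At an unadjusted p under 0.05 Klf2, Tbx3 and Sall4 were lower in Sox2-KD, 3 of 10 members beside 21.3% of all genes. Klf2 had the largest difference, a log2FC of -0.49 (-0.87 to -0.11, adjusted p = 0.129 by the edgeR quasi-likelihood test), and that of Tbx3 was -0.44 (-0.87 to -0.01).

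**Figure D4:**
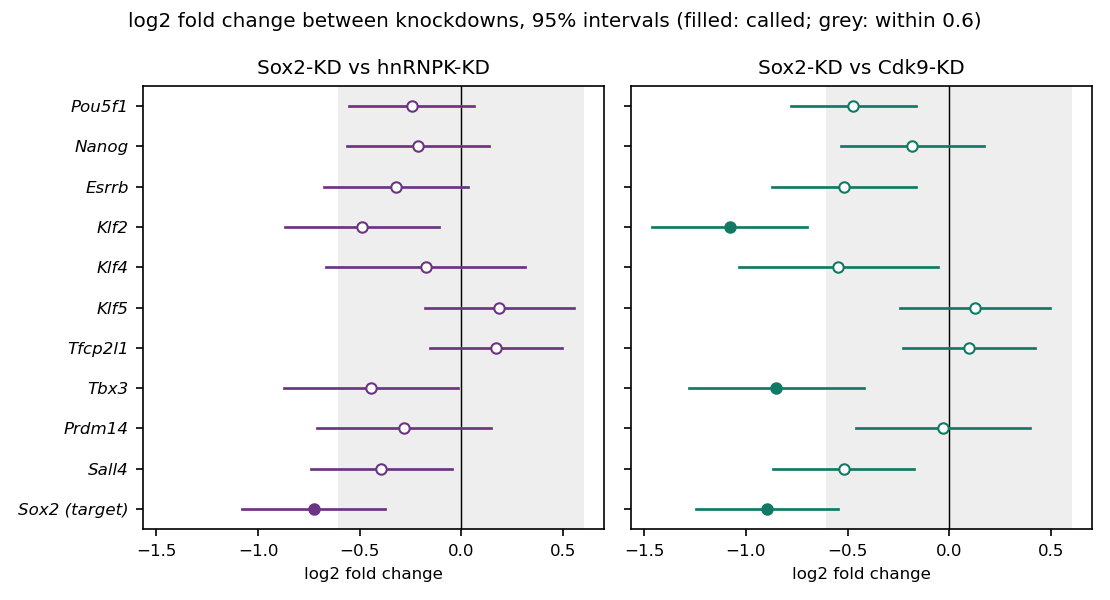
log2FC with 95% interval of each gene in Sox2-KD against the libraries labelled hnRNPK-KD and against Cdk9-KD, with called genes filled and log2FC values of -0.6 to 0.6 in grey. Against Cdk9-KD, Klf2 (-1.08) and Tbx3 (-0.85) are filled beside Sox2 itself (-0.90), and Klf5 and Tfcp2l1 lie to the right of 0.

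Of 22 other genes of the pluripotency network, 3 rose and 2 fell in Sox2-KD against control, and 17 were not called, where 4.32% of all genes tested were called, with a median log2FC of -0.18. Tcl1, an AKT coactivator, fell from 1330 and 1266 counts in control to 564 and 544 (log2FC -1.25). Tet2, a dioxygenase that oxidises 5-methylcytosine, fell from 4926 and 4805 to 1593 and 2406 counts (-1.30). Dnmt3l, a cofactor of de novo DNA methylation, rose from 1535 and 1377 to 3966 and 3234 counts (1.28), and Dppa2 rose from 844 and 998 to 1502 and 1649 (0.75). Utf1, outside the 4 genes that the naming rule allows, was the other that rose. The adjusted p of the named genes were between 0.00275 and 0.0228 in the edgeR quasi-likelihood test. No gene of this list was called in Cdk9-KD or under the hnRNPK-KD label, where 0.139% and 0% of all genes were, so that an absent call says little there. Utf1 had a log2FC of 0.80 in Sox2-KD, 0.84 in Cdk9-KD and 0.61 under the hnRNPK-KD label, and that of Dnmt3l was 0.54 in Cdk9-KD and 0.89 under that label. Between Sox2-KD and Cdk9-KD 6 of the 22 were lower and 2 higher in Sox2-KD, among them Mybl2 (-0.75), which was lower, where 7.33% of all genes were called. Against the libraries labelled hnRNPK-KD 5 were lower and 1 higher, beside 5.90% of all genes.

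Of 26 genes of the LIF, WNT, FGF and BMP inputs that feed the naive factors, 3 rose and 1 fell in Sox2-KD against control, beside 4.32% of all genes called. Fgfr1, an FGF receptor, rose from 1554 and 1680 counts to 2755 and 3362 (log2FC 0.90), and Fgfr2 from 10 and 8 to 74 and 60 (2.86). Spry4, an FGF feedback inhibitor, rose from 131 and 208 to 518 and 633 counts (1.74). Pim1, a kinase induced by STAT3, fell (-1.13). The other 22 genes of the list, which hold further parts of the same pathways, were not called. The median log2FC of the list was 0.19, beside 0.02 over all genes tested. No gene of this list was called in Cdk9-KD or under the hnRNPK-KD label, where 0.139% and 0% of all genes were. Spry4 was at 974 and 426 counts in Cdk9-KD (log2FC 2.09, adjusted p = 0.0970) and at 440 and 780 under the label (1.88, adjusted p = 0.304), both by the edgeR quasi-likelihood test. In the direct comparisons Id2, a BMP target, and the kinase gene Jak1 were higher in Sox2-KD than under the hnRNPK-KD label (2.70 and 0.72), and Fgfr2, Id2 and Jak1 were higher than in Cdk9-KD (3.27, 2.63 and 0.72).

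Of 41 relatives of the members within their families 34 were tested. In Sox2-KD against control 3 of the 34 were called, beside 4.32% of all genes: 1 rose, Grhl3 of the grainyhead family of Tfcp2l1 (0.70), and 2 fell, Sall3 (-1.33) and Prdm16 (-1.31). Against Cdk9-KD 2 relatives were higher and 5 lower in Sox2-KD (7.33% of all genes were called), and against the libraries labelled hnRNPK-KD 1 was higher and 5 lower (5.90% of all genes). In Cdk9-KD and under the hnRNPK-KD label against control the edgeR quasi-likelihood test called 0 of the 34, beside 0.139% and 0% of all genes.

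Markers of extraembryonic cells were examined beside the 10 factors. Of 12 trophectoderm markers tested, 7 rose in Sox2-KD against control and none fell, beside 4.32% of all genes called. Krt8 rose from 326 and 303 counts to 1768 and 3187 (log2FC 2.97), Krt18 from 58 and 50 to 754 and 1450 (4.34) and Krt19 from 38 and 34 to 140 and 397 (2.89), and the factor Gata3 from 5 and 3 to 43 and 50 (3.48). These keratins are epithelial genes of several cell types. Cdx2, a defining factor of the trophectoderm, was not called against control, at 111 and 109 counts in Sox2-KD beside 351 and 613 (log2FC -2.15, adjusted p = 0.0521 by the edgeR quasi-likelihood test). Of 11 primitive endoderm markers tested 3 rose and 1 fell, with Dab2 from 12 and 15 to 637 and 950 counts (5.85), Gata6 from 4 and 5 to 49 and 68 (3.65) and Sparc from 2309 and 3105 to 6434 and 8223 (1.42), while Lama1 fell (-1.01). The adjusted p of the markers named as rising or falling were between 0.000187 and 0.0215 in the edgeR quasi-likelihood test. Outside Sox2-KD, Gata3 held at most 6 counts and Gata6 at most 10. Krt7, which also rose but lies outside the naming rule, held at most 5 there. They entered the test only through the group in which they were high, so that a fall could not have been called for them. Trophectoderm markers summed to between 157 and 167 CPM in control, 270.0 and 428 in Sox2-KD, 167 and 192 under the hnRNPK-KD label and 163 and 168 in Cdk9-KD. Krt8 and Krt18 alone made up 139 and 265 CPM of the Sox2-KD sums and 21.6 and 20.2 CPM of the control sums. The other 12 genes summed to 131 and 163 CPM in Sox2-KD and 136 and 146 CPM in control. Summed primitive endoderm markers were between 414 and 432 CPM in control, 540 and 722 in Sox2-KD, 497 and 544 under the hnRNPK-KD label and 534 and 578 in Cdk9-KD. Lama1 and Sparc made up most of these sums, with means of 230 and 154 CPM in control and 114 and 411 CPM in Sox2-KD. Lama1 averaged 309 CPM under the hnRNPK-KD label, and in Cdk9-KD it had 5837 and 4705 counts beside 4307 and 3790 in control. The 10 factors together summed to between 4864 and 5420 CPM in control, 4454 and 5032 in Sox2-KD, 5049 and 5310 under the hnRNPK-KD label and 5501 and 6172 in Cdk9-KD. The part of these other cell types in the values of the 10 factors was not tested.

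**Figure D5:**
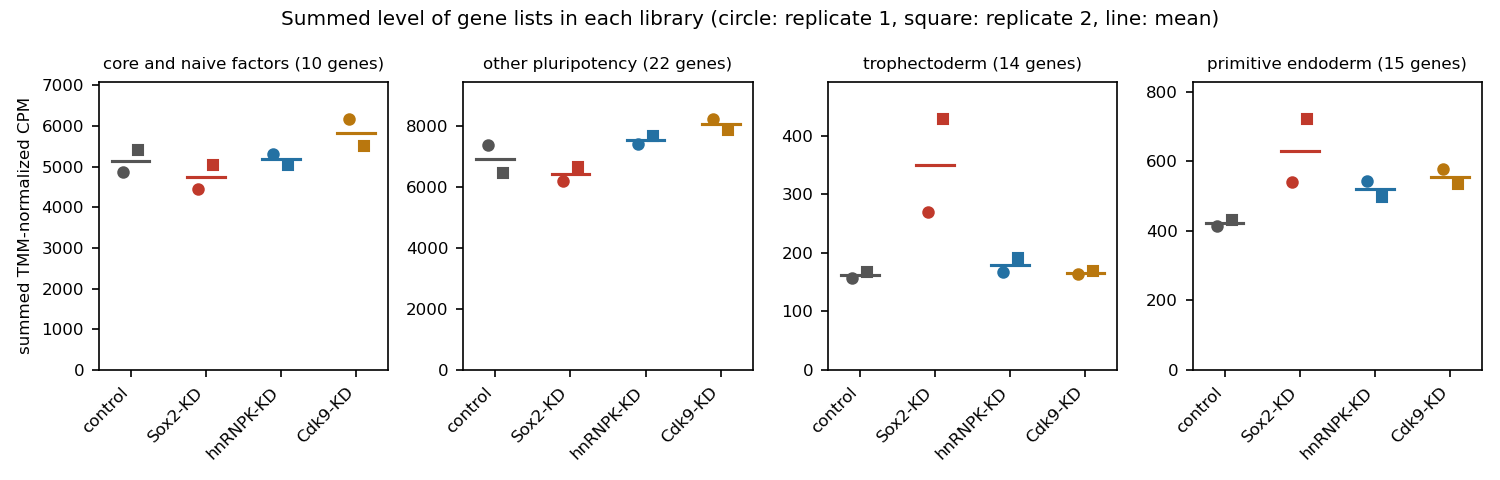
Summed TMM-normalized CPM of the 10 factors, of 22 other pluripotency genes and of the trophectoderm and primitive endoderm lists in each library, on axes that start at 0, with circles for replicate 1, squares for replicate 2 and lines for means. The trophectoderm sum is 270.0 and 428 CPM in Sox2-KD and at most 192 in all other libraries, with 139 and 265 CPM of the former from Krt8 and Krt18, while the sums of the 10 factors lie between 4454 and 6172 CPM. Most of the primitive endoderm sum is Lama1 and Sparc.

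The likeness of patterns was measured across the 8 libraries. As a description over points that share groups and a common scaling, Pearson's r of log2 CPM was 0.96 between Pou5f1 and Klf2, 0.94 between Pou5f1 and Esrrb and 0.91 between Klf2 and Tbx3. Nanog followed Prdm14 more closely (0.72) than Pou5f1 (0.19), and ran opposite to Klf5 (-0.86). The genes outside the members with the closest pattern were Zbtb8os (0.99) and Tjap1 (0.97) for Klf2, Fam189a2 (0.99) and Sema5b (0.98) for Pou5f1, Ccdc77 (0.98) and Zfp472 (0.96) for Nanog and Ofd1 (0.97) and Nudt3 (0.97) for Tbx3, picked as the highest among all genes tested with an average log2 CPM over 1. Those picked for the other members had r between 0.93 and 0.98.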

How the data were processed

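E14 ESC RNA (polyA) was sequenced on MGISEQ-2000 as read pairs. According to the paper's methods the authors trimmed reads with Trimmomatic and aligned them with STAR to mm10 with GENCODE vM23. The labels name STAR 2.7.9a and featureCounts 2.0.1, and the deposited counts carry mm10 and vM23 in their name. The deposited values are raw counts per gene and library, neither normalized nor pooled, and how strand and reads shared between genes were treated is not given in the sources used here. Symbols and exon lengths came from GENCODE vM21, which named 55154 of 55335 genes.

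Low counts were removed by filterByExpr. Its settings ask for the equivalent of 10 counts in at least 2 libraries, the size of a group, and for 15 counts in total. The rest was scaled by TMM and fitted over all 8 libraries by group in edgeR 4.0.16 (R 4.3.3). The quasi-likelihood test was adjusted by Benjamini-Hochberg over 16504 genes. RPKM used the summed exon length of each gene. The script was tested on simulated data. Alternatives were DESeq2 1.42.0, the likelihood ratio test, other scalings and filters, the 4 libraries compared alone, no limit on log2FC, a replicate block and leaving out each library. Library totals of 16709201 to 17719366 give the 10 members between 682 and 30525 counts, so that the spread between replicates limits the precision.

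The members, lists and tests were chosen with earlier results of these data known. Genes named are the 10 members, the targeted genes, up to 4 called genes of each list and comparison by smallest adjusted p, annotated pseudogene copies, and for each member the pair of genes with the highest Pearson correlation. Lists were other pluripotency, signal inputs, family relatives, formative, trophectoderm, primitive endoderm, mesendoderm, neural and fibroblast genes. One gene that this rule names is not reported here. Figures were drawn with matplotlib. Splicing and the study's other assays were not analysed here.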

Additional observations from a re-analysis of the deposited data

Results flagged for a closer look

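The effects of Sox2-KD and Cdk9-KD on Klf2 differed by a log2FC of -1.08 in the direct comparison of the knockdowns (adjusted p = 0.00514, Benjamini-Hochberg over the edgeR quasi-likelihood test), with both Sox2-KD libraries below and both Cdk9-KD libraries above both controls. For Tbx3 the difference was -0.85 (adjusted p = 0.0256 in the same edgeR test), with the Cdk9-KD libraries above all others and the Sox2-KD libraries overlapping control. Neither gene was called against control in either knockdown by that test.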

How the results depend on the processing

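The count of members called was 0 in Sox2-KD, in Sox2-KD against the libraries labelled hnRNPK-KD and under the hnRNPK-KD label with each of the 9 alternatives and without any 1 library. In Cdk9-KD it was 1 (Tbx3) with DESeq2 and 1 with the likelihood ratio test. Between Sox2-KD and Cdk9-KD it was 2 with every alternative, and between 1 and 3 on leaving out each library. The labels' replicate numbers did not pair the libraries (correlations of deviations between -0.223 and 0.21 over 6 pairs of groups), and a replicate block changed no call of a member, with 0 members called in each comparison but the last, where Klf2 and Tbx3 stayed (2). Of 450 log2FC values of members under those alternatives 436 kept their direction and call. The direction turned in 12, none larger than 0.045, and the cause was not tested. Under the hnRNPK-KD label, Klf2 (0.01 as reported) was at -0.005 with DESeq2-type size factors, -0.032 with library totals, -0.006 with DESeq2, -0.014 with at least 10 counts in every library and -0.015 with the 4 libraries alone. Tfcp2l1 (0.00) was at -0.009, -0.037, -0.010, -0.019 and -0.019 with the same settings and at -0.005 without a filter. Prdm14 between Sox2-KD and Cdk9-KD (-0.03) was at 0.045 with library totals.

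Leaving out each library turned the direction in 24 of 400 values. Under the hnRNPK-KD label the ranges were -0.13 to 0.12 for Klf2, -0.15 to 0.29 for Klf5, -0.13 to 0.11 for Tfcp2l1, -0.015 to 0.41 for Sall4, -0.057 to 0.013 for Pou5f1, -0.38 to 0.15 for Klf4 and -0.44 to 0.018 for Prdm14. In Cdk9-KD they were -0.065 to 0.50 for Klf4, -0.11 to 0.33 for Klf5 and -0.077 to 0.17 for Tfcp2l1, and in Sox2-KD -0.35 to 0.086 for Tbx3 and -0.40 to 0.018 for Sall4. Klf4 ranged from -0.40 to 0.009 against the libraries labelled hnRNPK-KD, and against Cdk9-KD Prdm14 ranged from -0.20 to 0.12 and Tfcp2l1 from -0.022 to 0.20.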

Other observations

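Formative, mesendoderm, neural and fibroblast markers were also examined, by edgeR's quasi-likelihood test. Of 10 formative genes tested none was called in a comparison with control. Of all genes, 4.32% were called in Sox2-KD, 0.139% in Cdk9-KD and 0% under the hnRNPK-KD label. Against Cdk9-KD, Dnmt3b (log2FC 0.98, adjusted p = 0.00713) and Pim2 (0.81) were higher in Sox2-KD, and Sall2 (-1.66) and Otx2 (-1.92) were lower. Against the libraries labelled hnRNPK-KD 1 formative gene was higher and 3 were lower in Sox2-KD. Of all genes, 5.90% were called in that comparison and 7.33% against Cdk9-KD.

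Of 5 mesendoderm genes tested, 2 rose and 1 fell in Sox2-KD against control, beside 4.32% of all genes called. Eomes, also on the trophectoderm list, was at 163 and 162 counts in Sox2-KD beside 68 and 45 in control, and it rose in Cdk9-KD as well, to 333 and 241 counts (log2FC 2.39, adjusted p = 0.0191 in edgeR's quasi-likelihood test). Evx1 rose to 30 and 12 counts from 0 and 1, and Gsc was at 2 and 4 counts beside 21 and 17. Evx1 held at most 9 counts in the libraries outside Sox2-KD, so that it entered the test only through the group in which it was high. Tfap2c, on the trophectoderm list, fell in Cdk9-KD from 771 and 751 counts to 225 and 132. Of 5 neural genes tested only Sox1 was called, at 10 and 9 counts in Sox2-KD beside 100 and 52 in control. Of 5 fibroblast genes tested only Lum was called, at 23 and 13 counts beside 0 and 1, where 4.32% of all genes were called. Lum held at most 2 counts in the libraries outside Sox2-KD and likewise entered the test only through Sox2-KD. Under the hnRNPK-KD label none of these lists had a gene called against control, where 0% of all genes were called. Cdx2 was nonetheless at 1463 counts in replicate 2 and 346 in replicate 1 of that label.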
